A study of Rattus norvegicus with 16 samples.

Results

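The genes that lie around *Pdrg1* on rat chromosome 3 were followed in H35 cells in which *Pdrg1* had been silenced. Members are the genes whose array probe starts within a window of 3 Mb on chromosome 3 of the rn4 build, at the positions given in the array files. The first member probe starts 1306 kb before the *Pdrg1* probe and the last starts 1552 kb after it. *Pdrg1* was included and *Id1* was left out. This gave 84 genes read by 98 probes, of 26269 gene names and 30367 probes on the array, and 83 of them are neighbours of *Pdrg1*. A symbol was given for 59 members, and the remaining 25 are known by an accession, a locus number or a probe name. The comparison asks whether the fall of *Pdrg1* extends to its neighbours.

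H35 is a rat hepatoma line. All cells were transfected with an shRNA plasmid and selected with G418. CN-10 is a stable line with a negative control sequence, 4-18 is a stable line with the sequence shRNA4 and 3-44 is a stable line with the sequence shRNA3. Each of these lines is 1 clone, so the clone and its plasmid cannot be told apart. shRNA3T is a pool of cells transfected with shRNA3 and enriched without cloning. Each group has 4 biological replicates, each on a one-color array, which makes 16 arrays. The 4 arrays of a group shared 1 slide, and 4-18 was scanned on a different day from the others, so that slide and group cannot be told apart. All comparisons with CN-10 share the same 4 CN-10 arrays.

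*Pdrg1*, p53 and DNA damage-regulated gene 1, encodes a small prefoldin-like protein. An shRNA acts on the transcript that matches it, through the RNA interference machinery. Loss of a stretch of chromosome or its packing into closed chromatin would instead lower several adjacent genes. The neighbours form a gene-dense stretch with genes of the mitotic spindle, the survival gene *Bcl2l1*, the DNA methyltransferase *Dnmt3b*, and clusters of beta-defensin and BPI-fold genes, which secretory epithelia are known for.

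The probes behind the members are 60 bases long. The last 30 bases at the 3′ end are shown for the *Pdrg1* probe and for 2 pairs of probes that overlap within a gene, because the readings of *Bcl2l1* and LOC690479 turn on which probe is used. Capitals mark bases that both probes of a gene share.
Pdrg1 A_43_P11144: ggagattgacagttcacttctgtgtgaagc
Bcl2l1 A_64_P054735: CAGTAATAAATGGTGTCTGTGActctgtga
Bcl2l1 A_64_P008047: GCAGTTCAGTAATAAATGGTGTCTGTGAaa
LOC690479 A_64_P081053: CTGAAGAGGTGGTTCCTGCCTCATCACAAC
LOC690479 A_64_P091914: CACAACagtgagtctcgctgtacctctctg
The *Bcl2l1* probes share 52 bases and those of LOC690479 share 36. The *Pdrg1* probe lies at chr3:143353382-143353441 on the minus strand of rn4.

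Values below are log2 of the normalized spot intensity, and a difference is a log2 fold change against CN-10 unless another group is named. Where a gene had several probes, the brightest stands for it. A gene was called when limma gave a Benjamini-Hochberg adjusted p under 0.05 over all probes of the array. Between 53.1% and 74.3% of the spots of an array were well above background, and the arrays of 4-18 were the dimmest. Of the member genes, 39.3% to 61.9% were well above background on the 4-18 arrays and 63.1% to 72.6% on the CN-10 arrays. Of the 83 neighbours, 32 were well above background on each of the 16 arrays, 52 throughout at least 1 group and 13 on none. Of 11 hepatocyte markers on the array, 9 were well above background on all 16 arrays. So were 1 of 4 fibroblast markers (*Col1a1*), 1 of 4 macrophage and leukocyte markers (*Cd14*, with *Cd68* and *Csf1r* on 15 arrays each) and 2 of 4 endothelial markers (*Cdh5* and *Vwf*), whereas *Dcn*, *Ptprc* and *Pecam1* were so on none. Marker levels differed between the groups. Of the hepatocyte markers, 4 were called lower and 1 higher in 4-18, 0 and 3 in 3-44, and 1 and 2 in shRNA3T. *Ttr* was higher in each (2.93, 2.84 and 2.39), and *Apoa1* was lower in 4-18 (-2.12) and higher in 3-44 (2.18). Of the 12 markers of other cell types, 1 was lower and 1 higher in 4-18, 1 and 1 in 3-44, and 0 and 2 in shRNA3T. These were *Cd14*, higher in each (0.81, 2.04 and 0.98), *Col1a1*, higher in shRNA3T (0.52), *Cd68*, lower in 4-18 (-0.43), and the fibroblast marker *Pdgfra*, lower in 3-44 (-0.24). Their part in the results was not tested. All 59 members with a symbol lie on chromosome 3 of the current GRCr8 assembly, and 57 of 58 adjacent pairs keep their order there.

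*Pdrg1* itself was lower in each silenced group. On the CN-10 arrays it read 13.41, 13.88, 13.51 and 13.77. On the 4-18 arrays it read 11.57, 13.33, 13.34 and 13.25, on those of 3-44 it read 11.89, 12.86, 12.90 and 12.95, and on those of shRNA3T it read 12.39, 12.90, 12.97 and 12.90. Every silenced array was below every CN-10 array, and replicate 1 was the lowest of each group, CN-10 included. In these bulk samples, fewer cells with the transcript and less transcript per cell cannot be told apart. The log2 fold change was -0.77 in 4-18, -0.99 in 3-44 and -0.85 in shRNA3T, each with an SE of 0.34. None of these was called, the adjusted p from limma being 0.129, 0.105 and 0.143. The exact two-sided permutation p was 0.0286 in each comparison, the smallest that 4 arrays against 4 can give. Without replicate 1 of every group the fold changes were -0.41, -0.81 and -0.79, and all 3 were called (limma adjusted p 0.00659, 0.000302 and 0.000208).

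**Figure D1:**
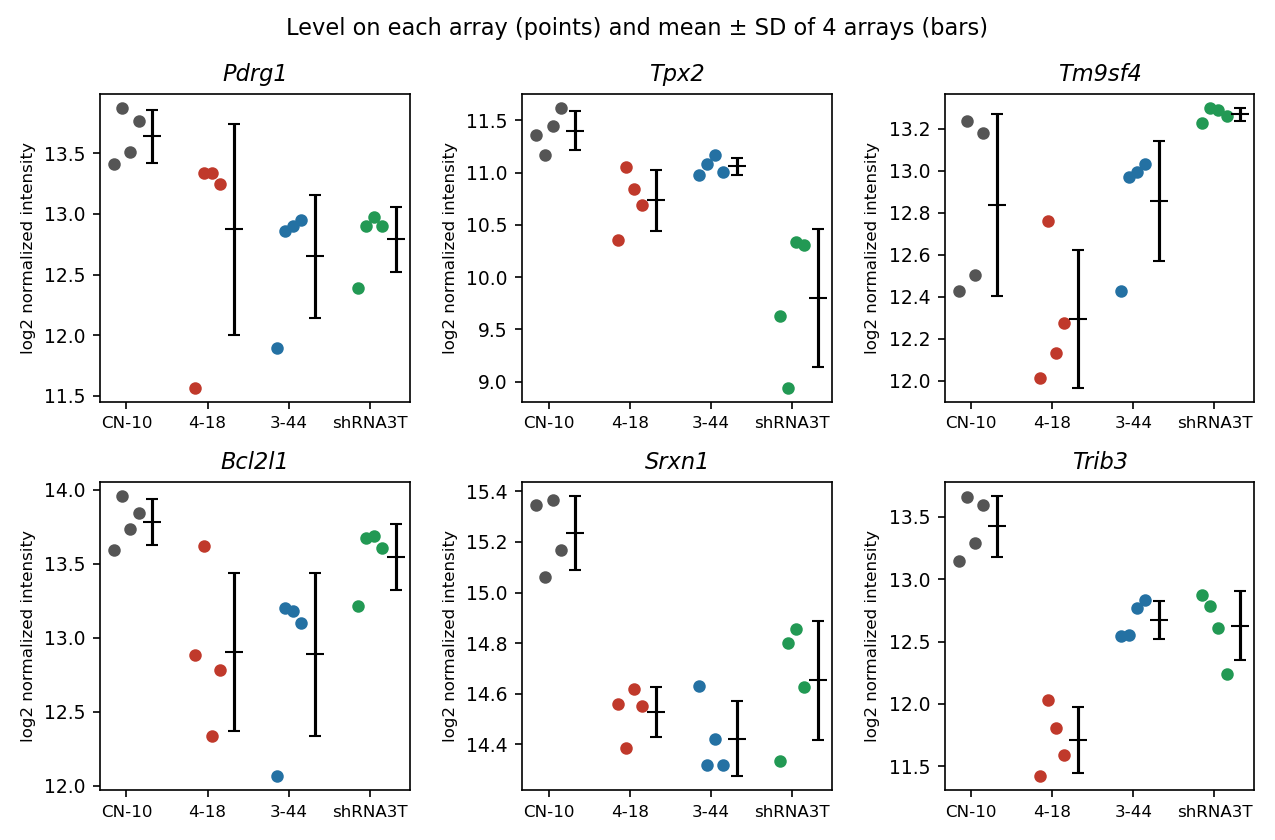
Level of *Pdrg1* and 5 neighbours on each array, as log2 normalized intensity by group; points are arrays and bars show the mean ± SD of 4 arrays, and each axis covers the range of its gene. *Pdrg1*, *Tpx2*, *Srxn1* and *Trib3* were below CN-10 on every silenced array, whereas *Tm9sf4* on the shRNA3T arrays (13.23 to 13.30) lay at the level of the highest CN-10 array (13.24).

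The genes closest to *Pdrg1* gave little signal in these cells. On the side of lower coordinates, *Ttll9*, a tubulin glutamylase family gene, starts 13.8 kb away and was well above background on 3 CN-10 arrays, 2 shRNA3T arrays and no array of 4-18 or 3-44. The 95% interval of its fold change included no change in each silenced group (-0.23 to 0.14 in 4-18, -0.37 to 0.0024 in 3-44 and -0.35 to 0.027 in shRNA3T). All *Ttll9* arrays of 3-44 and of shRNA3T were below those of CN-10 (exact two-sided permutation p 0.0286 in each), the fold changes of -0.18 and -0.16 were not called, and 4-18 overlapped CN-10. With the 75th percentile scaling they were -1.41 and -1.14 and were called (limma adjusted p 0.0158 and 0.0314). The phosphatase gene *Dusp15* at 66.3 kb was well above background on no array, and the forkhead factor *Foxs1* at 80.6 kb on 1 array of CN-10, 2 of 3-44, 2 of shRNA3T and none of 4-18. On the other side, *Xkr7* at 47.1 kb and *Tspyl3* at 222 kb were well above background on no array.

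The muscle kinase gene *Mylk2*, 89.6 kb before *Pdrg1*, was near the low end of the readable range. It changed by -0.10, -0.31 and -0.16 in 4-18, 3-44 and shRNA3T, and was not called. With the 75th percentile scaling, which has no offset, it was called in 4-18 (-0.70) and 3-44 (-0.85), sizes that are uncertain at this signal.

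*Tpx2* and *Tm9sf4* were the nearest neighbours with a readable signal on each of the 16 arrays, 1 on each side of *Pdrg1*. *Tpx2*, whose product activates Aurora A on the mitotic spindle, starts 121 kb before it. It read 11.36, 11.17, 11.45 and 11.62 in CN-10, and 9.62, 8.94, 10.33 and 10.31 in shRNA3T. It read 10.36, 11.05, 10.84 and 10.69 in 4-18, and 10.98, 11.09, 11.16 and 11.01 in 3-44. All silenced arrays were below all CN-10 arrays, with shRNA3T the lowest. The fold change was -1.60 ± 0.24 (SE) in shRNA3T, which was called (limma adjusted p 0.000449), and -0.67 and -0.34 in 4-18 and 3-44, which were not (0.0634 and 0.509). In 4-18 *Tpx2* was called in 8 of 26 alternatives, at -1.05 with the 75th percentile scaling, -1.10 after median centring and -1.31 with the deposited values (limma adjusted p 0.00166, 0.00644 and 0.00951). The deposited values are not scaled between arrays, and the 4-18 arrays were the dimmest. shRNA3T was lower than 3-44, which carries the same shRNA sequence, by a log2 difference of 1.26 (limma adjusted p 0.00368).

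*Tm9sf4*, a membrane protein gene of the nonaspanin family, starts 200 kb after *Pdrg1*. It read 12.43, 13.24, 12.51 and 13.18 in CN-10, and 12.02, 12.76, 12.13 and 12.27 in 4-18. It read 12.43, 12.97, 12.99 and 13.03 in 3-44, and 13.23, 13.30, 13.29 and 13.26 in shRNA3T. Each silenced group overlapped CN-10. The fold changes of -0.54, 0.02 and 0.43 were not called. In 4-18 *Tm9sf4* was called in 9 of 26 alternatives, at -1.04 after median centring, -1.23 with the deposited values and -0.66 with array weights (limma adjusted p 0.00724, 0.00778 and 0.0263). The difference between 4-18 and shRNA3T was called, at -0.97 (limma adjusted p 0.00272).

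*Plagl2*, a zinc finger factor gene, and *Pofut1*, which encodes the O-fucosyltransferase that modifies Notch receptors, start 226 kb and 257 kb after *Pdrg1*. The fold changes of *Plagl2* were -0.19, -0.23 and 0.29, and those of *Pofut1* were 0.18, -0.41 and -0.21. None was called.

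*Bcl2l1*, which encodes the anti-apoptotic protein Bcl-xL, starts 224 kb before *Pdrg1* and depended on the probe. Its brightest probe read 13.59, 13.96, 13.74 and 13.85 in CN-10. In 4-18 it read 12.88, 13.62, 12.34 and 12.78, in 3-44 it read 12.07, 13.21, 13.18 and 13.10, and in shRNA3T it read 13.22, 13.67, 13.69 and 13.61. The CN-10 range was reached by 1 array of 4-18, 3 of shRNA3T and none of 3-44. The fold changes of -0.88, -0.90 and -0.24 had adjusted p of 0.0249, 0.052 and 0.706 by limma, so that by this probe 4-18 alone was called. The overlapping probe printed above gave -1.35, -1.43 and -0.20 and was called in 4-18 and 3-44 (limma adjusted p 0.00475 and 0.0147, with 3 arrays each of 3-44 and shRNA3T, where an outlier spot was left out). A probe further upstream in the gene (A_44_P548065) gave 0.14, -0.58 and -0.38 and was called in 3-44 and shRNA3T (limma adjusted p 0.00528 and 0.0436). The window holds another *Bcl2l1* probe (A_64_P054730), whose readings are not given here. The call of the brightest probe in 4-18 was lost without CN-10 replicate 2 or 4, or without any 1 of 4-18 replicates 1, 3 and 4, with adjusted p between 0.0503 and 0.0784, and a call in 3-44 was gained without 4-18 replicate 2 or 3 (limma adjusted p 0.0223 and 0.0354).

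Across the whole window, calls in 4-18 were 14 lower and 4 higher among the 83 neighbours, with 12.4% of all genes called lower and 11.6% called higher in that comparison. In 3-44, 9 neighbours were lower and 1 was higher, against 4.69% and 3.45% of all genes. In shRNA3T, 7 were lower and 1 was higher, against 7.04% and 5.13% of all genes. As shares of the neighbours, the lower calls came to 16.9%, 10.8% and 8.43%, and the higher calls to 4.82%, 1.20% and 1.20%. The share of lower calls was close to that of all genes in shRNA3T and above it in 4-18 and 3-44. Higher calls were below the share of all genes in each comparison. Without replicate 1 of every group, 18, 16 and 10 neighbours were lower, and 4, 0 and 1 were higher, where 13.4%, 7.27% and 9.05% of all genes were lower and 12.3%, 3.22% and 5.35% higher. The counts depended on the processing, and those of all genes moved with them. In 4-18, 28 neighbours were higher after median centring, when 41.5% of all genes were, and 0 in the deposited values, when 1.15% were. In each of these 18 neighbours were lower there, against 14.9% and 14.7% of all genes. In 3-44 and shRNA3T, median centring gave 4 lower neighbours each, against 1.04% and 2.12% of all genes. The deposited values gave 1 each, against 0.522% and 0.834%, and array weights gave 21 and 20, against 10.4% and 14.7%.

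A called change of at least 2-fold was found in 4 neighbours in 4-18, 3 in 3-44 and 1 in shRNA3T, all of them lower. Over all genes, 3.54%, 0.788% and 1.19% were lower by that rule. With the 75th percentile scaling 11, 6 and 6 neighbours passed 2-fold in either direction, against 13.8%, 2.92% and 4.73% of all genes. After median centring 10 did in 4-18 and 2 in shRNA3T, against 12.0% and 2.41%, and with the deposited values 13 did in 4-18 and 1 in 3-44, against 11.5% and 0.723%. In 59 neighbours no comparison with CN-10 gave a call, and 24 were called in at least 1, against 31.1% of all genes. The calls were spread over the window, and called genes stood beside genes that were not called or were higher.

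**Figure D2:**
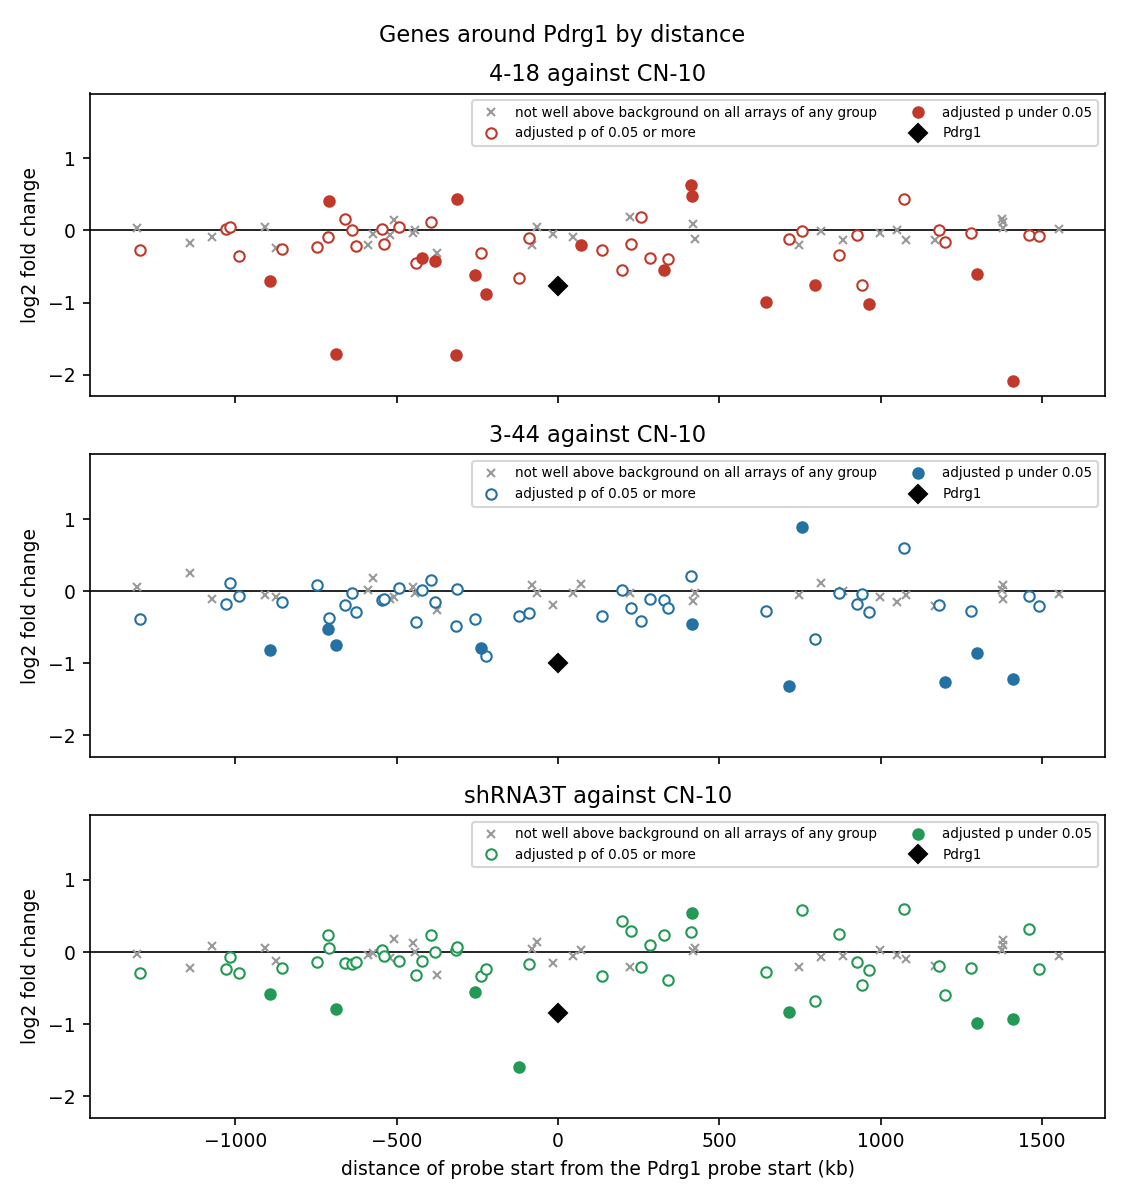
Log2 fold change against CN-10 by distance from the *Pdrg1* probe, in kb, for the 84 members in each silenced group; filled circles are called (adjusted p under 0.05), open circles are not, and crosses mark genes not well above background on all arrays of any group. Lower calls (14 in 4-18, 9 in 3-44 and 7 in shRNA3T) lie up to 1410 kb from *Pdrg1* and are mixed with genes near 0.

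Distance from *Pdrg1* did not order the differences in the same way in each group. Within 250 kb, the median over 13 neighbours was -0.20 in 4-18, -0.18 in 3-44 and -0.16 in shRNA3T. From 250 to 500 kb the medians over 19 neighbours were -0.12, -0.12 and 0.02. From 500 to 1000 kb, over 30 neighbours, they were -0.16, -0.09 and -0.13, and beyond 1000 kb, over 21 neighbours, -0.04, -0.11 and -0.10. The nearest genes had the lowest of these medians in each group, but 6 of these 13 were not well above background on all arrays of any group. Over the genes that were, the medians within 250 kb were -0.31, -0.34 and -0.24 (7 genes), and from 250 to 500 kb they were -0.38, -0.14 and 0.02 (14 genes). From 500 to 1000 kb they were -0.22, -0.18 and -0.15 (20 genes), and beyond it -0.06, -0.20 and -0.23 (11 genes). Among these genes the nearest stretch had the lowest median in 3-44 but not in 4-18, and in shRNA3T it was level with the farthest. A gene entered this set even where CN-10 alone was well above background throughout. The effect of this filter on the medians was not tested.

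Among the genes further away, *Srxn1* and *Trib3* were called lower in all 3 comparisons. In 3-44 and shRNA3T neither was called after median centring (limma adjusted p 0.228 and 0.374 for *Srxn1*, 0.269 and 0.151 for *Trib3*) or in the deposited values, at fold changes from -0.55 to -0.90. With the 75th percentile scaling the call of *Srxn1* in shRNA3T was lost as well (-0.36, limma adjusted p 0.0545). *Srxn1*, which encodes the sulfiredoxin that restores oxidized peroxiredoxins, starts 891 kb before *Pdrg1*. It read 15.35, 15.06, 15.37 and 15.17 in CN-10, and between 14.39 and 14.62 in 4-18, 14.32 and 14.63 in 3-44 and 14.33 and 14.86 in shRNA3T. No silenced array reached the CN-10 range. The fold changes were -0.71, -0.81 and -0.58 (SE 0.12 each), with adjusted p from limma of 0.000358, 0.000402 and 0.00344.

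*Trib3*, a pseudokinase gene of the integrated stress response, starts 688 kb before *Pdrg1*. It read 13.15, 13.66, 13.29 and 13.60 in CN-10, between 11.42 and 12.03 in 4-18, 12.54 and 12.83 in 3-44, and 12.24 and 12.87 in shRNA3T. Again no silenced array reached the CN-10 range, and 4-18 was the lowest group. The fold changes were -1.71, -0.75 and -0.80 (SE 0.16 each), with adjusted p from limma of 1.97e-06, 0.00883 and 0.00377. 4-18 was lower than 3-44 by a log2 difference of -0.96 and lower than shRNA3T by -0.92, and both differences were called (limma adjusted p 0.00046 and 0.000747).

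Of the genes beside *Trib3*, *Rbck1*, a subunit gene of the linear ubiquitin ligase complex, starts 20.8 kb from *Trib3* and was higher in 4-18 by 0.41 (limma adjusted p 0.0155). In 3-44 it gave -0.38 (limma adjusted p 0.0547) and in shRNA3T 0.05, neither called. *Tbc1d20*, a gene for a Rab GTPase-activating protein, starts 25 kb from *Trib3* and was lower in 3-44 alone (-0.53, limma adjusted p 0.0276). *Nrsn2*, on the other side of *Trib3*, was not called by its brightest probe (0.15, -0.19 and -0.15), while its second probe gave -0.72, -0.30 and -0.40 and was called in 4-18 and shRNA3T (limma adjusted p 0.000471 and 0.0477).

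Of all neighbours, 4 were called lower in all 3 comparisons, which share CN-10, and 1.28% of all genes were. They are *Srxn1*, *Trib3*, LOC690479 and ENSRNOT00000042148. None was called higher in all 3 by limma, against 1.15% of all genes, and at an unadjusted p under 0.05 in all 3 there were 0 higher and 8 lower, against 2.54% and 3.21% of all genes. LOC690479 gave -0.60, -0.85 and -0.98 with the first probe shown above and 0.09, -0.03 and 0.05 with the second, which overlaps it, so the reading of this gene is uncertain. ENSRNOT00000042148, a transcript 1410 kb after *Pdrg1*, gave -2.09, -1.22 and -0.92.

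Arrays without overlap give a view that does not depend on the fitted spread. All 4 arrays lay below all CN-10 arrays for 16 neighbours in 4-18, 16 in 3-44 and 15 in shRNA3T, against 11.5%, 9.03% and 11.2% of all genes. They lay above for 5, 0 and 3 neighbours, against 12.0%, 7.24% and 11.0% of all genes. All 3 silenced groups lay below CN-10 for 6 neighbours (*Srxn1*, *Trib3*, *Tpx2*, *Mapre1*, ENSRNOT00000042148 and the probe A_64_P086036), against 1.85% of all genes. *Mapre1*, which encodes the microtubule end-binding protein EB1, had fold changes of -0.75, -0.66 and -0.67 and was called in 4-18 alone. One shRNA3T spot of *Mapre1* was set aside as an outlier, so that this group rests on 3 arrays.

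Other neighbours were lower in some groups. *Mcts2*, a translation factor gene copied from *Mcts1* and lying within *Hm13*, starts 315 kb before *Pdrg1*. It read 14.52, 13.66, 14.71 and 13.73 in CN-10 and 12.81, 12.22, 11.94 and 12.74 in 4-18, without overlap, and its fold change there was -1.73 (limma adjusted p 5.76e-05). In 3-44 and shRNA3T it was -0.48 and 0.03, not called. The 2 probes of *Mcts1* on chromosome X gave -1.13 and -0.94 in 4-18, and signal from the parent gene at the *Mcts2* probe was not tested, although the probes share no stretch of 20 bases. *Hm13*, which encodes signal peptide peptidase and holds *Mcts2*, was higher in 4-18 by 0.43 (limma adjusted p 0.00583).

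*Dnmt3b*, the de novo DNA methyltransferase, starts 716 kb after *Pdrg1*. It read 8.55, 9.22, 8.93 and 9.16 in CN-10, and 6.998, 8.06, 7.81 and 7.73 in 3-44. It read 8.21, 8.18, 8.10 and 8.04 in shRNA3T, and 8.28, 8.996, 9.16 and 8.97 in 4-18. Both groups that carry shRNA3 were below CN-10 without overlap, and 4-18 overlapped it. The fold change was -1.32 in 3-44 and -0.84 in shRNA3T, both called (limma adjusted p 0.00149 and 0.0213), and -0.12 in 4-18, not called (0.772). The difference between 4-18 and each of the others was called as well, at 1.20 against 3-44 and 0.72 against shRNA3T (limma adjusted p 0.001 and 0.0309). The call in shRNA3T was lost without CN-10 replicate 2 or 4 or shRNA3T replicate 3 or 4, with adjusted p between 0.0523 and 0.0733. With the deposited values neither *Dnmt3b* call held, at -1.47 in 3-44 and -0.87 in shRNA3T (limma adjusted p 0.0657 and 0.366). All of these values are from the brightest probe of *Dnmt3b*. The readings of its other probe in the window (A_64_P004730) are not given here.

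The lists by role leave 43 of the 83 neighbours in no list, among them *Trib3*, *Srxn1* and *Tbc1d20*, so their counts do not cover all genes of a role. The list drawn up for spindle and microtubules held *Tpx2*, *Ttll9*, *Kif3b*, *Mapre1* and *Cdk5rap1*, the last of which is not a gene of that role. The list gave 2 lower calls in 4-18, none in 3-44 and 1 in shRNA3T, with medians of -0.55, -0.18 and -0.16. *Cdk5rap1* was not called but enters the medians. Over all genes 12.4%, 4.69% and 7.04% were called lower. *Kif3b*, a kinesin-2 motor gene, was called in 4-18 at -0.55. *Commd7*, a gene of the COMM domain family, was called in 4-18 (-0.99, limma adjusted p 1.13e-05). *Cox4i2*, the isoform gene of a cytochrome c oxidase subunit, starts 239 kb before *Pdrg1* and was lower in 3-44 (-0.78, limma adjusted p 0.00942).

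The 20 beta-defensin and BPI-fold genes gave 3 lower calls in 4-18, 1 in 3-44 and none in shRNA3T, and no higher call. These counts are close to the 12.4% and 4.69% of all genes called lower in 4-18 and 3-44, and are no result about these genes. For 13 of them all arrays of at least 1 group were well above background. *Bpifb3* read 7.99, 7.88, 7.82 and 7.70 in CN-10 and 6.88, 6.91, 6.79 and 6.72 in 4-18, a difference of -1.02 (limma adjusted p 0.00061), and was -0.29 and -0.25 in the others. *Bpifa5* read 10.30, 9.32, 10.18 and 9.72 in CN-10 and 9.03, 8.63, 8.55 and 8.26 in 3-44, a difference of -1.26 (limma adjusted p 0.000872), and was -0.16 in 4-18 and -0.59 in shRNA3T. The *Bpifb3* call in 4-18 was lost with the deposited values (-0.84, limma adjusted p 0.176). Without replicate 1 of every group *Bpifb3* was called in 3-44 (-0.36) and shRNA3T (-0.42) as well (limma adjusted p 0.0329 and 0.011).

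The window as a whole had a small shift. The median over the 83 neighbours was -0.12 in 4-18, -0.11 in 3-44 and -0.09 in shRNA3T, and 57, 62 and 53 neighbours were below 0. Over all genes the median was 0.00, -0.01 and -0.01. With the arrays centred on their medians in place of quantile normalization, the neighbours' median in 4-18 turned to 0.25 while that of all genes rose to 0.37. The rest of chromosome 3 had medians of 0.01, -0.02 and -0.01 over 1855 genes. The 29 genes of the 3 Mb before the window had -0.10, -0.11 and -0.06, and the 59 genes of the 3 Mb after it had 0.06, 0.01 and -0.02. The stretch before the window thus had nearly the same median as the window. Of 33 other windows of 3 Mb on chromosome 3 with at least 20 genes, 1, 2 and 1 had a lower median in 4-18, 3-44 and shRNA3T.

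**Figure D3:**
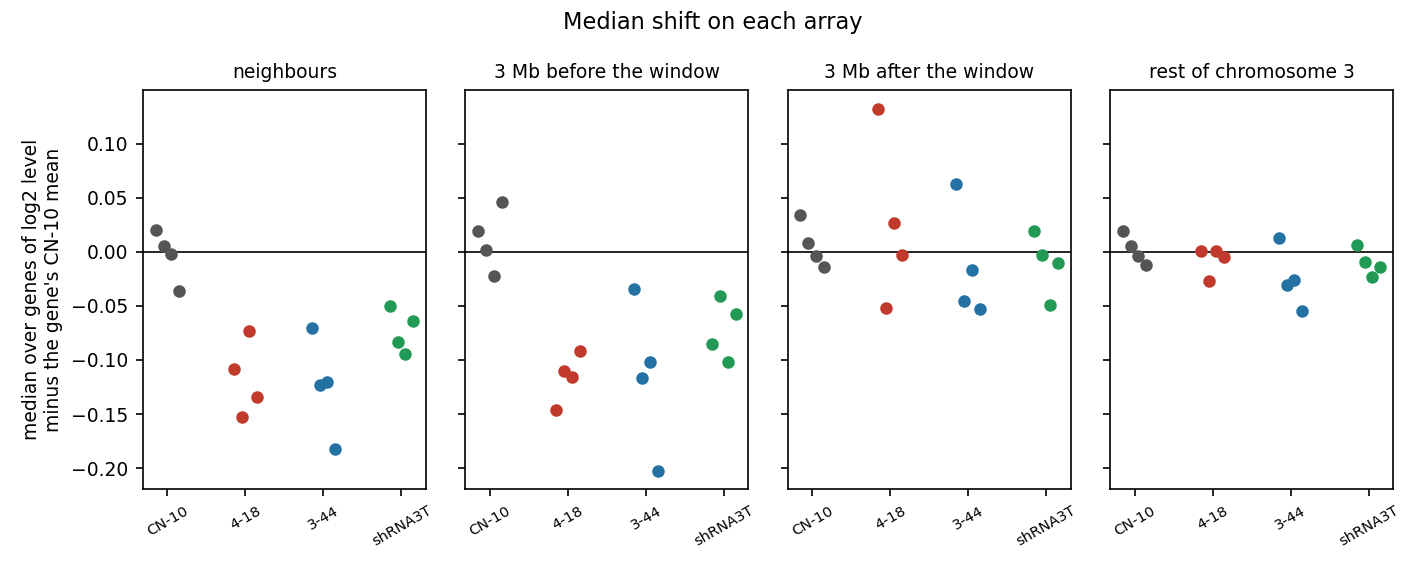
Median over genes of the log2 level minus the gene's mean in CN-10, on each array, for the neighbours, the 3 Mb on either side and the rest of chromosome 3; each point is an array. For the neighbours the CN-10 arrays lie between -0.04 and 0.02 and the silenced arrays between -0.18 and -0.05; the 3 Mb before the window are also lower, between -0.20 and -0.03.

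On single arrays, the median of the neighbours lay between -0.15 and -0.07 in 4-18, -0.18 and -0.07 in 3-44 and -0.09 and -0.05 in shRNA3T, and between -0.04 and 0.02 in CN-10. CN-10 is 1 clone and enters each of the comparisons. Between the silenced groups, the medians of the neighbours were 0.01 for 4-18 against 3-44, -0.04 for 4-18 against shRNA3T and -0.03 for 3-44 against shRNA3T. Calls there were 9 lower and 9 higher, 10 lower and 5 higher, and 5 lower and 1 higher. Over all genes 10.1% and 12.4%, 9.24% and 11.3%, and 5.57% and 5.36% were called lower and higher in these 3 comparisons.

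The size that the data allow was read from the 40 neighbours brighter than the median probe. Their median was -0.24 in 4-18, -0.26 in 3-44 and -0.18 in shRNA3T, whereas that of all genes so bright was 0.00, -0.02 and -0.01. A log2 fold change of -1 is a 2-fold fall. The 95% interval of the fold change lay above -1 for 32, 31 and 33 of the 40 neighbours, held -1 for 5, 9 and 6, and lay below it for 3, 0 and 1. Within 500 kb of *Pdrg1*, 16 neighbours were so bright, and the interval lay above -1 for 13, 14 and 15 of them. *Pdrg1* itself fell by less than 2-fold (-0.77, -0.99 and -0.85), and its own interval held -1 in each group. An interval above -1 can still hold a fall as large as that of *Pdrg1*, so these counts speak only to falls of 2-fold or more. Whether neighbours fell as far as *Pdrg1* was not tested.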

How the data were processed

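The members and gene lists were chosen with earlier results of these data known. RNA of 16 cultures was labelled with Cy3 and hybridized to rat 4x44K arrays. Spots were quantified by the authors in Feature Extraction 10.7.3.1, and the deposited intensity values are linear and unscaled. A second deposited table, of values that had lost their decimal points, was read here as a score. With the points restored it equals log2 of the median signal after normexp, to within 3.99e-11, and it served as an alternative. It was not scaled between arrays, so differences in array brightness remain in its fold changes. The 75th percentile of the processed signal had a median of 1777 on the 4-18 arrays and 3014 on the CN-10 arrays.

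Work was done with limma 3.58.1 in R 4.3.3. The background was removed by normexp (offset 50) on mean signal and median background, log2 values of the 42877 gene spots were quantile normalized, outlier spots were left out, and each probe was given the mean of its spots. The fit had 1 mean per group over 16 arrays with empirical Bayes moderation. A probe was well above background on an array where at least 50% of its spots were. The steps were tested on simulated data, where the fit missed the first pass mark for recovering 2-fold changes and met one set afterwards, so that a gene not called may have changed.

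Genes named are *Pdrg1*, the 6 nearest genes with a symbol on each side, and those called past 2-fold in any comparison or called alike in all 3. The result of 1 gene under this rule is not reported here. *Rbck1*, *Tbc1d20*, *Nrsn2*, *Hm13*, *Mapre1*, *Kif3b*, *Commd7*, *Cox4i2*, *Mcts1* and the cell type markers fall outside this rule and were chosen after their values were seen. Of the members, 51 matched RefSeq by accession. No rn4 annotation was used, so exons and introns are not stated. The number of arrays limits the precision. Alternatives were another scaling, no background correction, brighter probes, outlier spots kept, array weights, a replicate block, the 2 groups of a comparison alone, a 1.5-fold limit, every probe counted and each array left out.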

Additional observations from a re-analysis of the deposited data

Results flagged for a closer look

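Among 76 sets of 4 arrays (19 named genes in 4 groups), 8 held an array that stood apart from the other 3 by Dixon's criterion, which chance flags in about 1 in 20 groups. In 7 of the 8 the array was replicate 1. *Pdrg1* read 11.57 on replicate 1 of 4-18, 11.89 on replicate 1 of 3-44 and 12.39 on replicate 1 of shRNA3T, each the lowest of its group. On replicate 1 of 3-44, *Bcl2l1* (12.07) and *Tm9sf4* (12.43) were also the lowest and *Pofut1* (10.05) was the highest. *Mcts2* was highest on replicate 1 of shRNA3T (14.25), and *Mylk2* was lowest on replicate 4 of CN-10 (6.94).

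The silenced groups differed from each other by the limma test of that difference in 17 cases. Between 4-18 and 3-44 the log2 differences were -0.29 for *Foxs1*, 0.21 for *Tspyl3*, 0.59 for *Pofut1*, -0.96 for *Trib3*, -1.25 for *Mcts2*, 1.20 for *Dnmt3b*, -0.73 for *Bpifb3* and 1.10 for *Bpifa5*. *Tspyl3* was well above background on no array, and *Foxs1* on none of 4-18. Between 4-18 and shRNA3T they were 0.93 for *Tpx2*, -0.97 for *Tm9sf4*, 0.40 for *Tspyl3*, -0.92 for *Trib3*, -1.76 for *Mcts2*, 0.72 for *Dnmt3b* and -0.77 for *Bpifb3*. Between 3-44 and shRNA3T they were 1.26 for *Tpx2* and -0.67 for *Bpifa5*.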

How the results depend on the processing

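The median of the neighbours stayed below that of all genes by 0.08 to 0.40. This held for quantile normalization, the other scalings and the deposited values, which are not scaled between arrays. The choice among them moved the median of all genes itself, in 4-18 to 0.19 with the 75th percentile of the processed signal, 0.37 with median centring and 0.13 with the deposited values, and in shRNA3T to -0.23 with the 75th percentile. The cause of the changes below was not tested. Values are in the order 4-18, 3-44, shRNA3T.

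With the 75th percentile, the medians were -0.21, -0.34 and -0.40, 11, 6 and 6 neighbours passed 2-fold, 0 were higher in 3-44, and *Pdrg1* was called in 4-18 (-0.82) and shRNA3T (-0.98). With median centring, the medians were 0.25, -0.031 and -0.14, 28, 0 and 0 neighbours were higher, 18, 4 and 4 lower, 10 in 4-18 and 2 in shRNA3T passed 2-fold, and *Pdrg1* was called in 4-18 (-1.27). *Foxs1* (0.56) and *Xkr7* (0.70), both dim, turned to higher calls in 4-18. With the deposited values, the medians were -0.020, -0.18 and -0.16, 18, 1 and 1 neighbours were lower, 0 higher in each, 13 in 4-18 and 1 in 3-44 passed 2-fold, and *Pdrg1* was called in 4-18 (-1.52). *Srxn1* and *Trib3* kept their direction in all 26 alternatives and their call in 4-18, and were called in 24 and 24 in 3-44 and 23 and 24 in shRNA3T.

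Over brighter probes the medians were -0.24, -0.26 and -0.18, with 2 higher in shRNA3T. In shRNA3T, no background correction gave 2 past 2-fold, and keeping outlier spots gave 2 past 2-fold and 2 higher. With the 2 groups alone, *Pdrg1* was called in 3-44 (-0.99) and shRNA3T (-0.85), and 3 were higher in shRNA3T. Array weights gave 21 lower and 2 higher in 3-44, 20 lower, 6 higher and 2 past 2-fold in shRNA3T, and called *Pdrg1* in both (-0.84 and -0.77). A 1.5-fold limit left 1 higher call in 4-18 and 0 in shRNA3T.

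The labels give no shared origin to arrays of the same replicate number. Their deviations correlated between 0.18 and 0.44 for number 1, -0.02 and 0.13 for number 2, -0.06 and 0.18 for number 3 and -0.11 and 0.21 for number 4, so that number 1 alone deviated together in every pair and the numbers were not taken as a pairing. With the replicate block, *Pdrg1* was called in each comparison (-0.77, -0.99 and -0.85, adjusted p 0.0176, 0.0108 and 0.0183), and 0 neighbours were higher in 3-44. The block also called *Tm9sf4* in 4-18, *Mylk2* and *Bcl2l1* in 3-44 and *Bpifa5* in shRNA3T (adjusted p 0.0171, 0.0383, 0.0221 and 0.0324).

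With arrays left out, singly or replicate 1 of every group together, *Pdrg1* ranged from -0.92 to -0.33, -1.09 to -0.74 and -0.93 to -0.72, and was -0.41, -0.81 and -0.79, called in each, without replicate 1 of every group. Lower calls ranged from 10 to 18, 7 to 16 and 6 to 10, higher calls from 4 to 5, 0 to 1 and 1 to 2, 2-fold calls from 3 to 5, 3 to 4 and 1 to 3, and medians from -0.13 to -0.09, -0.14 to -0.08 and -0.11 to -0.06.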
